A study of Mus musculus with 8 samples.

Results

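Integrins are the receptors by which cells hold on to the matrix around them, and laminins are the matrix proteins that many epithelial integrins bind. An integrin is a pair of an α and a β chain, and a laminin is a cross-shaped trimer of an α, a β and a γ chain. In the hair follicle, the basal cells sit on a basement membrane rich in laminins and hold to it through integrins, and cells that move inward leave that membrane. Other integrins belong to blood cells: the β2 and β7 chains and their α partners serve the adhesion and traffic of leukocytes. The genes of 36 such chains were examined in maps of open chromatin from 4 follicle cell populations.

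The chains were taken as a family, with no measured value in the choice: 26 integrin genes and 10 laminin genes. A peak of open chromatin was assigned to a member when its midpoint lay nearest to the span of that protein-coding gene, within 100 kb, with distance 0 inside the gene. By this rule 853 of the 266630 peaks in the 4 lists belonged to the 36 genes, out of 21631 protein-coding genes considered. The members form 5 groups by what the chains are known for. Epithelial integrins were Itga2, Itga3, Itga5, Itga6, Itga9, Itgav, Itgb1, Itgb4, Itgb5, Itgb6 and Itgb8. Leukocyte integrins were Itga4, Itgad, Itgae, Itgal, Itgam, Itgax, Itgb2 and Itgb7. The other integrins were Itga1, Itga2b, Itga7, Itga8, Itga10, Itga11 and Itgb3, which belong to mesenchyme, muscle or platelets. Epidermal laminins were Lama3, Lama5, Lamb1, Lamb3 and Lamc1, and the other laminins Lama1, Lama2, Lama4, Lamb2 and Lamc3.

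The assay was ATAC-seq, a method that lets a transposase cut and tag accessible DNA, on cells sorted from mouse back skin of mixed sex. Bulge stem cells (positive for GFP, CD34 and integrins α6 and β1) and hair germ cells (GFP+, CD34-, positive for both integrins) came from Lgr5-eGFP-ires-CreER mice at postnatal day 55, when follicles rest. Basal TACs (transient amplifying cells, which divide and descend from the stem cells; GFP-, CD34-, SCA1-, P-cadherin+ and high in integrin β1) came from mice of the same strain at postnatal day 30, during hair growth. Suprabasal TACs (low in GFP, integrin α6-, CD34-) came from K14-H2BGFP mice of the same age, a strain in which a keratin promoter drives a GFP-tagged histone. Age, hair cycle stage and population cannot be told apart between the telogen and the anagen lists, nor can strain and population for the suprabasal TACs. Since the α6 and β1 proteins were used to gate the cells, values at Itga6 and Itgb1 describe cells chosen partly by those products.

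Each population has 1 peak list called on its 2 samples together, so replicate error is not known for any value and no test was possible. The lists rest on 24065469 fragments for bulge cells, 11053351 for hair germ cells, 30824845 for basal and 47852893 for suprabasal TACs. The height of a peak is the number of fragments over its summit per 1000000 fragments of its list (FPM). At the 11654 sites near gene ends that all 4 lists held, the median log2 ratio of FPM was -0.02 for hair germ over bulge, -0.65 for basal TAC over hair germ, -0.54 for suprabasal over basal TAC and -1.21 for suprabasal TAC over bulge, so FPM was lower in the TAC lists at those sites too. Orders of height below are by FPM unless the common sites are named. Intervals are 95% intervals and cover counting error only. Those of site shares count sites as independent, although several sites can belong to 1 gene. An absent peak means that none was called; the lowest peak called in each list was between 0.313 and 0.543 FPM, and coverage without a peak is not known. The suprabasal list had the lowest median fold enrichment, 4.79 against 6.71 to 7.48 in the others. In every list all 6 markers of basal epithelium (Krt5 and Krt14 among them), all 5 of the bulge and all 5 of the hair matrix had a peak. Of 11 leukocyte markers, 2, 2, 4 and 5 had a peak at a gene end or start in bulge, hair germ, basal and suprabasal TACs, and 6, 6, 9 and 10 had one within 100 kb. Of 6 endothelial markers 5, 5, 5 and 4, and of 6 melanocyte markers 5, 4, 5 and 5, had a peak within 100 kb in the same order. Of all protein-coding genes 70.3, 69.6, 74.3 and 73.3% had a peak within 100 kb in that order. At a gene end or start 63, 62.2, 65.7 and 65.3% had one. Marker counts near these shares do not show which cells were present.

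The start regions of 5 chains show what the lists have at promoters. The 250 bases before the start are printed 5′ to 3′ on the gene's strand, from RefSeq on GRCm38.p6 (the same build as mm10), with matches to the motifs searched in capitals. Itgb1 and Lamb1 are shown because their start peaks had opposite orders of FPM over bulge, hair germ and basal TACs. On the scale of the common sites the order at Itgb1 was not resolved. Itgb6 is shown because its 2 starts differed, and Itga4 and Itgam as leukocyte chains with and without a start peak. The windows lie at chr8:128685404-128685653 (Itgb1, plus strand), chr12:31265043-31265292 (Lamb1, plus strand), chr2:60673694-60673943 and chr2:60722604-60722853 (Itgb6, minus strand, inner and outer start), chr2:79255176-79255425 (Itga4, plus strand) and chr7:128062390-128062639 (Itgam, plus strand).
Itgb1: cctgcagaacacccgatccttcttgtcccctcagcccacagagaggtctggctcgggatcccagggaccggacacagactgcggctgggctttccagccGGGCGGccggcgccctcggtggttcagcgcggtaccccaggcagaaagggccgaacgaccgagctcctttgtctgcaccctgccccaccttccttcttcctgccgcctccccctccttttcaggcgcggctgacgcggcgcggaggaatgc
Lamb1: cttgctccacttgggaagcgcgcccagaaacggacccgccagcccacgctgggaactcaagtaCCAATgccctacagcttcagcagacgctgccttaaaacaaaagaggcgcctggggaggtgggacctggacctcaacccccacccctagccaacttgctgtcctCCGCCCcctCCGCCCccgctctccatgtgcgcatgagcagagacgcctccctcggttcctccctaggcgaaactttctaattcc
Itgb6 inner start: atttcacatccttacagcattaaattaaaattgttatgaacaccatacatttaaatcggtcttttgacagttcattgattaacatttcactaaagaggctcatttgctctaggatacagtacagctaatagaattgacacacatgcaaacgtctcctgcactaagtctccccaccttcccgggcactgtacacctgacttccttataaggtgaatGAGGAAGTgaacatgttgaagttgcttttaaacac
Itgb6 outer start: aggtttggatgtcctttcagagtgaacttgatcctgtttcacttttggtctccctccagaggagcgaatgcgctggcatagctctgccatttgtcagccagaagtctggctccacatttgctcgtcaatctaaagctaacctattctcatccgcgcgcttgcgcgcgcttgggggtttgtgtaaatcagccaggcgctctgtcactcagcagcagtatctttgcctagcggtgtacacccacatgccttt
Itga4: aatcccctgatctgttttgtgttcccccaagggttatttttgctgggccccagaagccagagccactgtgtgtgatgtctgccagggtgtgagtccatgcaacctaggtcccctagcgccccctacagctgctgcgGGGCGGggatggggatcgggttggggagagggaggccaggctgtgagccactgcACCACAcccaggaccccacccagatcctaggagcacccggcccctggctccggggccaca
Itgam: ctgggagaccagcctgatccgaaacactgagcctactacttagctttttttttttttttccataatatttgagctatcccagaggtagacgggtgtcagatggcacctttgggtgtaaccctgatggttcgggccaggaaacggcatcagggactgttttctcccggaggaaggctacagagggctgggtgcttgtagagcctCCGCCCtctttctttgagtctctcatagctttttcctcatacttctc

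In the Itgb1, Lamb1, Itga4 and Itgam sequences the capitals include GGGCGG or its complement CCGCCC, the core bound by SP and KLF factors. It occurred in 12 of the 26 RefSeq promoter windows of 23 members (300 bases, of which 50 follow the start; both strands) and in 46.7% of 21045 such windows of protein-coding genes. Lamb1 also has CCAAT, found in 4 of the 26 windows and 38.5% of all. The capitals at the inner Itgb6 start are GAGGAAGT, a form bound by the blood-cell factor PU.1, which begins 35 bases before the start. Of the 26 windows 4 held it, those of Itga11, Itgav, Itgb6 and Itgb7, against 3.15% of all; its last 6 letters are shared with the ETS motif CCGGAAGT, which no member window held and 5.2% of all did. The second capital stretch of Itga4, ACCACA, is the RUNX core TGTGGT on the other strand (3 of 26 windows, 14.7% of all). AP-1 (TGANTCA) matched 3 windows, those of Itga3, Itga9 and Itgax (7.04% of all), and LEF/TCF (CTTTGAA) matched Itga1 and Itga10 (4.55%). AGATAA, bound by GATA factors, matched Itgax (9.68%). TATAAA (12.7% of all) and the paired p63 half-sites (0.703%) matched no member window. A match is a description of letters only.

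The groups parted at gene ends and starts. All 11 epithelial integrins (Clopper-Pearson interval 71.5 to 100%) had a peak within 1 kb of a gene end or over a RefSeq start in each of the 4 lists. The same held for all 5 epidermal laminins. Of the 8 leukocyte integrins, 1 had such a peak in each list (12.5%, interval 0.316 to 52.7%), and it was Itga4 each time. Of the 7 other integrins 5, 5, 6 and 6 had one in bulge, hair germ, basal and suprabasal TACs, and of the 5 other laminins 4, 3, 4 and 3. Over all protein-coding genes the share was 63, 62.2, 65.7 and 65.3% in the same order. With peaks anywhere within 100 kb counted, 5, 5, 4 and 6 of the 8 leukocyte integrins had at least 1, against 70.3, 69.6, 74.3 and 73.3% of all genes, and all 11 epithelial integrins did.

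Peaks were also counted per length of gene, since epithelial chains lie in longer genes (median span 75.5 kb) than leukocyte chains (37.2 kb). Inside the gene spans, epithelial integrins had 8.45 peaks per 100 kb in bulge cells, 6.76 in hair germ cells, 7.26 in basal and 6.56 in suprabasal TACs. Leukocyte integrins had 2.69, 2.39, 3.88 and 3.58. All protein-coding genes together had 3.34, 3.05, 4.12 and 4.10, and the epithelial chains were above that level in each list. The leukocyte values rest on 9, 8, 13 and 12 peaks in 335 kb. They were 0.803, 0.784, 0.943 and 0.875 times the level of all genes, which is near it for so few peaks. Epidermal laminins had 6.83, 7.59, 11 and 9.30 peaks per 100 kb, the highest of the 5 groups in every list but the bulge. The other laminins, mostly long genes, had 1.33, 1.23, 1.43 and 0.613. The other integrins had 3.7, 4.22, 6.34 and 4.05.

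Peak heights differed in the same direction between both kinds of integrin. The mean peak of an epithelial integrin stood at 4.35, 4.53, 2.61 and 1.48 FPM in bulge, hair germ, basal and suprabasal TACs, and that of a leukocyte integrin at 2.52, 3.01, 1.99 and 1.01. Summed over their peaks, the 11 epithelial genes reached 482.9, 403.0, 255.6 and 123.1 FPM over 82.2, 67.5, 85.0 and 65.2 kb of called sequence. The 8 leukocyte genes reached 37.9, 30.1, 29.9 and 15.2 over 9.68, 6.37, 12.3 and 8.79 kb. Peaks of all genes were also lower in the TAC lists, with means of 4.09, 4.21, 2.53 and 1.64, and the TAC lists were thus lower for the members and for genes at large.

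**Figure D1:**
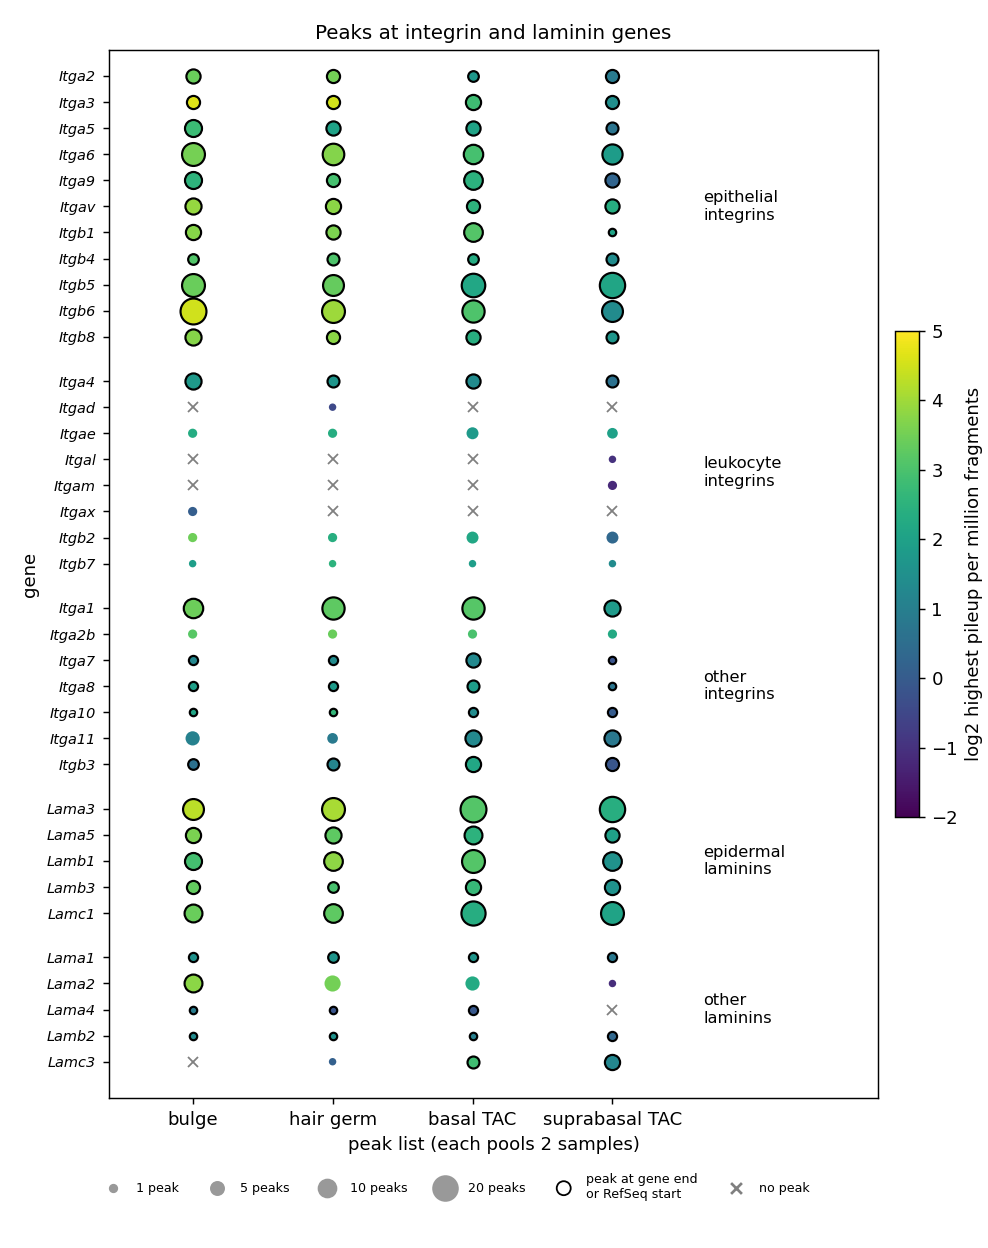
Peaks assigned to each of the 36 genes in the 4 lists, grouped by kind of chain: point size is the number of peaks, colour is the log2 of the highest FPM among them, a black ring marks a peak within 1 kb of a gene end or over a RefSeq start, and a cross marks no peak. Epithelial integrins and epidermal laminins have ringed points in every list, while Itgad, Itgal, Itgam and Itgax have crosses in 3 of the 4 lists each.

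Sites away from gene ends were shared by fewer lists. Peaks of the 4 lists that overlapped by at least 1 bp were merged into 114956 sites, of which 364 belonged to members. Of the 33 member sites at a gene end or RefSeq start, 24 (72.7%) were in all 4 lists, against 73 of the 331 others (22.1%). Sites at large split in a similar way: with the end or start of any protein-coding gene counted, 72.8% of gene-end sites and 19.2% of the others were in all 4 lists, against 75% and 21.3% of member sites counted that way. Over all 364 member sites 26.6% were in all 4 lists, against 27.3% of all sites. Of epithelial integrin sites 14.1% (interval 9.05 to 20.6%) were in the bulge list alone, against 6.74% of all sites, and 4.49% (1.82 to 9.03%) in the suprabasal list alone, against 15.5%. Epidermal laminin sites were the other way round in the bulge list, which alone held 1.04% of them (0.0264 to 5.67%). The basal TAC list alone held 18.8% (11.5 to 28.0%), an interval that holds the 14.5% of all sites.

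Among the β chains, Itgb1, the common partner of many α chains and a marker of the sort, had 7 peaks in bulge cells, 6 in hair germ cells, 11 in basal TACs and 1 in suprabasal TACs. That last peak was at its start (chr8:128684894-128686589), where the height was 13.2 FPM in bulge cells (11.8 to 14.7), 12.2 in hair germ cells (10.2 to 14.5), 8.79 in basal (7.78 to 9.90) and 4.14 in suprabasal TACs (3.58 to 4.76). A site 18.1 kb upstream (chr8:128666538-128667522) stood at 10.6, 7.78 and 4.51 in the first 3 lists and was not called in suprabasal TACs. At 5 other upstream sites, between 5.30 and 83.8 kb before the gene, only the basal TAC list had a peak, of 0.779 to 2.24 FPM. The start of Itgb1 was thus open in all 4 lists, and none of its 12 other sites was called in the suprabasal list. Whether the sort on integrin β1 has a part in this was not tested.

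Itgb6, whose product pairs with αv in epithelia and binds the latent form of TGF-beta, had the highest sum of all 36 genes in the bulge: 140.2 FPM from 22 peaks. The sums were 94.5 from 17 peaks in the hair germ, 54.4 from 16 in basal and 16.1 from 14 in suprabasal TACs. Its highest site lay inside the gene (chr2:60639404-60640627) at 22.5 in bulge cells (20.6 to 24.5), 13.1 in hair germ cells (11.1 to 15.4), 6.88 in basal (5.98 to 7.87) and 2.55 in suprabasal TACs (2.12 to 3.04). Another internal site, chr2:60667479-60668799, went from 16.7 in the bulge to 0.815 in suprabasal TACs, a 20.5-fold difference. The outer start printed above was overlapped by a peak in the bulge alone, at 1.21 FPM, and the inner start by peaks of 5.11, 4.43, 2.27 and 0.794 in all 4 lists. One internal site, chr2:60634107-60634675, was called in basal TACs alone at 3.76.

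Itgb5, another partner of αv, had 17, 14, 18 and 21 peaks in bulge, hair germ, basal and suprabasal TACs, and its sum of 38.6 FPM in suprabasal TACs was the highest of the 36 genes there. Its highest site (chr16:33872027-33873967, inside the gene) stood at 10.5 in bulge cells (9.26 to 11.9), 10.1 in hair germ cells (8.34 to 12.2), 4.51 in basal (3.79 to 5.32) and 4.33 in suprabasal TACs (3.76 to 4.96), and the intervals of both TAC lists overlapped. Itgb4, the β chain of hemidesmosomes, had few peaks, 3, 4, 3 and 4, with 1 at the lower-coordinate gene end of 8.52, 8.32, 4.87 and 2.59 FPM. Itgb8, which also pairs with αv, had its start peak at 13.2, 13.7, 5.19 and 3.20.

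**Figure D2:**
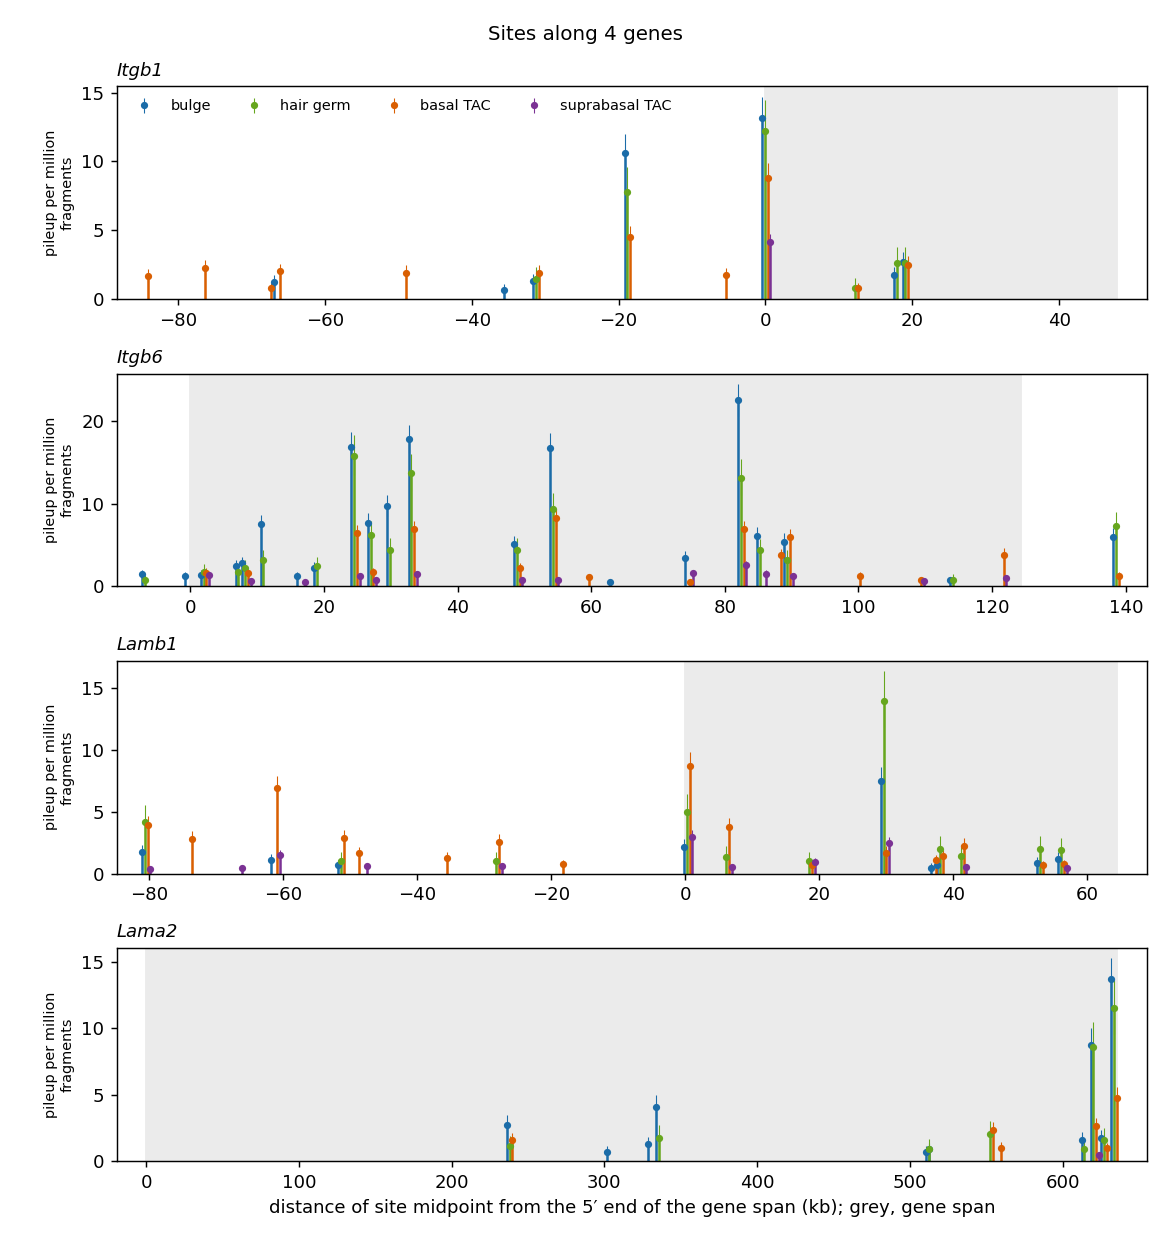
Sites along Itgb1, Itgb6, Lamb1 and Lama2 by the distance of their midpoint from the 5′ end of the gene span in kb (grey, the span), with the height of each list's peak in FPM and its exact Poisson interval; the 4 lists are drawn in 4 colours, shifted slightly sideways. Around Itgb1 and Lama2 the suprabasal TAC list has 1 peak each, and at Lamb1 the start peak is highest in basal TACs by FPM.

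Among the α chains, Itga6, which pairs with β4 in hemidesmosomes and with β1 elsewhere, had 17, 15, 12 and 13 peaks in bulge, hair germ, basal and suprabasal TACs. Suprabasal TACs had been sorted as negative for the α6 protein. Of the 25 Itga6 sites 8 were in all 4 lists, near the share of all sites (27.3%) and of epithelial integrin sites (28.8%). The highest (chr2:71800117-71802659, inside the gene) stood at 11.7 in bulge cells (10.4 to 13.1), 13.1 in hair germ cells (11.1 to 15.4), 6.85 in basal (5.95 to 7.83) and 2.24 in suprabasal TACs (1.83 to 2.70). A peak at its lower-coordinate end (chr2:71786539-71788142) was at 10.6, 7.87, 3.41 and 2.67. The highest member site held by any 1 list alone was also at Itga6: chr2:71790106-71790781, at 7.31 FPM in the bulge. After the gene, chr2:71864321-71864564 was in the suprabasal list alone, at 1.17.

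Itga3, the α chain of a laminin receptor of basal keratinocytes, held the highest member site of all, inside the gene at chr11:95069283-95070943 (25.3, 22.9, 7.14 and 2.76 FPM in bulge, hair germ, basal and suprabasal TACs); it is named here after its values were seen. Itga2, the α chain of a collagen receptor, had its start site (chr13:114930053-114932481) at 10.6 in bulge cells (9.30 to 11.9), 11.3 in hair germ cells (9.41 to 13.5), 3.34 in basal (2.73 to 4.05) and 1.84 in suprabasal TACs (1.47 to 2.27). A neighbouring Itga2 site 1.34 kb beyond the gene (chr13:114933436-114933960) was at 5.19 and 5.34 in bulge and hair germ and absent from both TAC lists. Itga5, the fibronectin receptor chain, had 9, 6, 6 and 4 peaks; its sites chr15:103359804-103360500 and chr15:103342255-103342653 were in the bulge list alone, at 4.07 and 2.37. Itgav, the partner of several β chains, had 1 such bulge-only site (chr2:83728475-83728900, 4.49) and 1 held by basal TACs alone (chr2:83739295-83740880, 3.18). Itga9, a chain that binds tenascin, had 9, 5, 11 and 6 peaks, and its highest site (chr9:118692796-118693896) was at 5.73, 7.6 and 5.55 in bulge, hair germ and basal TACs and absent from suprabasal TACs.

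The leukocyte chains split by gene. Itga4, an α chain that leukocytes share with other cells, had 8, 4, 6 and 4 peaks in bulge, hair germ, basal and suprabasal TACs and was the one member of its group with a start peak (chr2:79255235-79256202), at 2.04, 1.81, 1.88 and 0.543 FPM. Its highest site lay inside the gene (chr2:79289804-79290757) at 3.41 in bulge cells (2.71 to 4.23), 3.17 in hair germ cells (2.21 to 4.4), 2.53 in basal (2 to 3.16) and 1.53 in suprabasal TACs (1.2 to 1.92). The 4 α partners of β2, on chromosome 7, were nearly empty: Itgam had no peak except 2 in suprabasal TACs (0.439 and 0.355), Itgal 1 in suprabasal TACs (0.502), Itgad 1 in the hair germ (0.724) and Itgax 2 in the bulge (1.04 and 0.665). None of these 6 peaks was at a gene end or start.

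Itgb2, the β chain shared by those partners, had 2, 2, 4 and 4 peaks and none at a gene end. One of them was the highest leukocyte integrin site: chr10:77544608-77545399, inside the gene, stood at 11 in bulge cells (9.69 to 12.4), 5.25 in hair germ cells (3.98 to 6.78) and 4.51 in basal TACs (3.79 to 5.32) and was absent from suprabasal TACs. Itgae, the αE chain of T cells that bind E-cadherin, had 2, 2, 4 and 3 peaks. Its highest (chr11:73136741-73138648; 4.99, 5.07, 3.44 and 3.95 FPM) lay at the end of Haspin, a gene nested in it, and was tied between both genes. Itgb7 had 1 site, inside the gene, at 3.7, 5.61, 3.7 and 2.53. The leukocyte markers Cd3e, Cd3g, Cd52, Csf1r and Cd74 had no peak in the bulge and hair germ lists; in basal TACs Cd3g and Cd52, and in suprabasal TACs Cd3g, had none. Whether the few leukocyte integrin peaks came from blood cells in the sorts was not tested.

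The other integrins had 28 peaks in bulge cells, 30 in hair germ cells, 45 in basal and 27 in suprabasal TACs, out of lists of 62320, 56536, 75637 and 72137 peaks. Inside the gene spans their density was 1.11, 1.39, 1.54 and 0.988 times that of all protein-coding genes, highest in basal TACs but with a smaller difference from the hair germ than the counts. Of 7 dermal markers 5, 5, 7 and 5 had a peak within 100 kb in bulge, hair germ, basal and suprabasal TACs. Among all genes that share was 70.3, 69.6, 74.3 and 73.3%. At a gene end or start 2, 2, 4 and 4 of these markers had one, against 63, 62.2, 65.7 and 65.3% of all genes. The peaks of the dermal markers numbered 20, 12, 28 and 30. The part of dermal cells in the integrin peaks was not tested. Itga1, a collagen receptor chain, had 12, 16, 16 and 8 peaks. Its highest site (chr13:114963924-114964556) was at 10.7 in bulge cells (9.41 to 12.1), 9.59 in hair germ cells (7.85 to 11.6), 4.77 in basal (4.03 to 5.61) and 2.44 in suprabasal TACs (2.02 to 2.93). Another internal site, chr13:114992233-114993414, was high in basal TACs alone: 8.82 there (7.81 to 9.94) against 0.748, 0.724 and 1.09 in bulge, hair germ and suprabasal TACs. With the ratio of basal TAC to hair germ at 12.2-fold, this was the largest rise of any shared member site in that pair. Of the 22 Itga1 sites, 2 lay at the ends of the nested gene Pelo.

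Itgb3, the β chain of the platelet fibrinogen receptor and a partner of αv, had 3, 4, 7 and 5 peaks. Its highest site, at the gene's upper end (chr11:104669369-104670493), was at 4.51 in basal TACs (3.79 to 5.32) and 0.919 in suprabasal TACs (0.668 to 1.23) and absent from bulge and hair germ. Itga2b, the α chain of that platelet receptor, had 2 sites, both in all 4 lists, with the higher inside the gene (chr11:102465745-102468592) at 9.06, 10.5, 7.92 and 4.68. Of the platelet markers Gp9, Pf4 and Gp1ba, none had a peak in the first 3 lists and Gp1ba had 1 in suprabasal TACs. Itga7, a laminin receptor chain of muscle, had 2, 2, 6 and 1 peaks, and its site chr10:128952741-128954287 was in basal TACs alone at 2.47. Of the muscle markers Myod1, Des and Acta1, 1, 1, 3 and 1 had a peak in bulge, hair germ, basal and suprabasal TACs. Beside these platelet and muscle markers, 70.3, 69.6, 74.3 and 73.3% of all genes had a peak within 100 kb. The part of muscle cells in the basal TAC peaks of Itga7 was not tested.

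All 5 epidermal laminins had more peaks in basal TACs than in either telogen list, as had 39.5% of all genes with a peak in any of those lists. That share is not matched for peaks per gene. The medians in bulge, hair germ and basal TACs were 9, 11 and 17 for these laminins and 1, 1 and 2 for all genes. Lama3, the α chain of the laminin that anchors hemidesmosomes, had 14, 17, 22 and 21 peaks in bulge, hair germ, basal and suprabasal TACs. Its highest site (chr18:12502981-12505680, inside the gene) was at 19.4 (17.7 to 21.2), 17.0 (14.7 to 19.6), 8.66 (7.65 to 9.77) and 5.25 FPM (4.62 to 5.94), with overlapping intervals in bulge and hair germ. Another internal site, chr18:12386762-12387514, was in basal TACs alone at 4.28. Lamb3, the β chain of the same laminin, had 5, 3, 7 and 7 peaks, and its site over a RefSeq start (chr1:193300065-193302479) was at 9.93, 7.78, 5.29 and 2.36.

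Lamb1, a β chain of the laminins of many basement membranes, had 9, 11, 17 and 11 peaks, and its sites did not share 1 pattern. At the start (chr12:31264497-31266700) the height was 2.16 in bulge cells (1.61 to 2.83), 4.98 in hair germ cells (3.75 to 6.48), 8.73 in basal (7.71 to 9.83) and 2.97 in suprabasal TACs (2.50 to 3.50). By FPM the start was thus highest in basal TACs, while that of Itgb1 was highest in bulge and hair germ, whose intervals overlapped. Relative to the common gene-end sites, the log2 ratios at the Lamb1 start were 1.22 for hair germ over bulge and 1.46 for basal TAC over hair germ. On this scale basal TACs were thus again highest at the Lamb1 start. At the Itgb1 start the log2 ratios were -0.09 and 0.18, small beside the counting intervals of its heights. Bulge, hair germ and basal TACs were not told apart there on this scale. An internal site, chr12:31294026-31295866, was highest in the hair germ: 7.48 in bulge cells (6.43 to 8.66), 14 in hair germ cells (11.9 to 16.4), 1.69 in basal (1.26 to 2.21) and 2.44 in suprabasal TACs (2.02 to 2.93). A site 60.6 kb upstream (chr12:31203560-31204516) was at 6.91 in basal TACs, 1.08 in the bulge and 1.53 in suprabasal TACs and absent from the hair germ, and chr12:31190829-31191759 was in basal TACs alone at 2.79.

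Lamc1, the γ chain found in most laminins, had 10, 11, 19 and 17 peaks. Its highest site, at the upper gene end (chr1:153331373-153334206), was at 10.6 in bulge cells (9.37 to 12), 9.59 in hair germ cells (7.85 to 11.6), 4.28 in basal (3.58 to 5.08) and 4.14 in suprabasal TACs (3.58 to 4.76). Site chr1:153281469-153282030 was in suprabasal TACs alone at 2.80, the highest member site held by that list alone. Lama5, the α chain that is widespread in adult epithelial basement membranes, had 7, 8, 10 and 6 peaks, with the start peak at 5.57, 5.07, 5.68 and 3.87.

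Of the other laminins, Lama2 and Lamc3 went opposite ways. Lama2, the α chain of muscle and nerve basement membranes, had 10, 8, 6 and 1 peaks, and no list had a peak at its start. Its highest site (chr10:26982255-26983180), near the 3′ end of this minus-strand gene, was at 13.7 in bulge cells (12.3 to 15.3), 11.5 in hair germ cells (9.58 to 13.7) and 4.77 in basal TACs (4.03 to 5.61) and absent from suprabasal TACs. The one Lama2 peak of suprabasal TACs (chr10:26995407-26996845) was at 0.460, against 8.77 in the bulge. Lamc3, a γ chain, had 0, 1, 4 and 7 peaks, the highest of them inside the gene (chr2:31903988-31904868) at 1.09 in the hair germ (0.561 to 1.90), 7.17 in basal (6.26 to 8.18) and 2.32 in suprabasal TACs (1.91 to 2.79). Lama1 had a peak at its lower-coordinate end of 2.99, 3.17, 3.11 and 1.76, Lamb2 a start peak of 2.53, 2.99, 2.01 and 1.25, and Lama4 an end peak of 1.87, 0.905 and 0.941 that was absent from suprabasal TACs.

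The lists were then compared in 4 pairs along the lineage. A site counted as changed when only 1 of both lists held it, and a shared site when its heights differed by at least 2-fold. Counts by gene set unlike genes side by side. Members had medians of 5, 4, 6 and 4 peaks in bulge, hair germ, basal and suprabasal TACs and a median span of 62.1 kb. All genes had 1, 1, 2 and 2 peaks and 17.3 kb. Genes with few peaks tie more readily, so the shares of all genes with more or fewer peaks are not a matched reference. This limit also holds for the adhesion and matrix partners below. Between bulge and hair germ, the epithelial integrins had more sites of the bulge alone: of 113 sites in either list, 28 (24.8%, interval 17.1 to 33.8%) were in the bulge alone and 6 (5.31%, 1.97 to 11.2%) in the hair germ alone. Over all sites 19.7% were in the bulge alone and 9.92% in the hair germ alone, so both shares lay within counting error of the background. By gene, 9 of 11 had fewer peaks in the hair germ and 1 more (Itgb4), against 30.4 and 17.2% of all genes. Epidermal laminins had 10 of 53 sites (18.9%, 9.44 to 32.0%) in the hair germ alone and 7 in the bulge alone, and 4 of 5 genes had more peaks in the hair germ. Of the leukocyte sites 7 of 17 were in the bulge alone and 2 in the hair germ alone. At shared sites, the median log2 ratio of hair germ to bulge was -0.05 for epithelial integrins, 0.23 for epidermal laminins and -0.01 over all sites. Of shared epidermal laminin sites, 5 of 36 were at least 2-fold higher in the hair germ and 1 lower, against 5.79 and 5.14% of all. Scaled to the gene-end sites that all 4 lists held, 5 were again higher and 1 lower, against 6.02 and 4.92% of all.

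**Figure D3:**
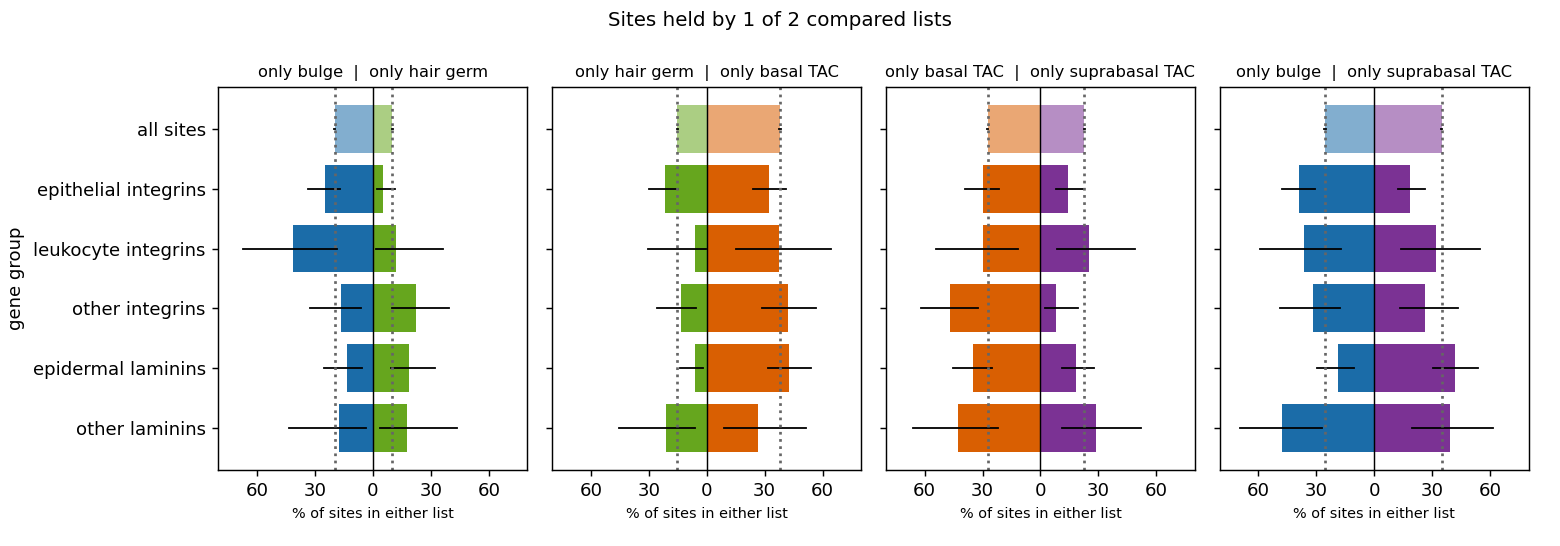
Sites held by only 1 of both lists, as a percentage of the sites in either, for each group and for all sites in the 4 pairs, with exact 95% intervals as black lines; bars to the left are the list named on the left, and dotted lines carry the value of all sites down the panel. In the pair of bulge and suprabasal TACs, epithelial integrins have 38.9% in the bulge alone and epidermal laminins 18.9%.

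Between hair germ and basal TACs, the epidermal laminins had most of their unshared sites in basal TACs. Of 80 sites, 34 (42.5%, 31.5 to 54.1%) were in basal TACs alone and 5 (6.25%, 2.06 to 14%) in the hair germ alone, against 38 and 15.2% of all sites, and the interval of the second share lay below its background. All 5 genes had more peaks in basal TACs, as had 48.8% of all genes. Epithelial integrins had 40 of 125 sites (32.0%, 23.9 to 40.9%) in basal TACs alone and 27 (21.6%, 14.7 to 29.8%) in the hair germ alone, and their genes were evenly divided, with 5 having more peaks and 5 fewer, where 15.6% of all genes had fewer. Other integrins had 22 of 52 only in basal TACs and 7 only in the hair germ, and leukocyte integrins 6 and 1 of 16.

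Heights in this pair depended on the scaling. By FPM, the median log2 ratio at shared sites was -0.72 for epithelial integrins, -0.08 for epidermal laminins and -0.50 over all sites. Relative to the common sites these became -0.07, 0.57 and 0.15. On that scale 16 of 41 shared epidermal laminin sites (39.0%) were at least 2-fold higher in basal TACs and 3 lower, against 18.6 and 7.84% of all sites; by FPM the counts were 11 and 9, against 7.75 and 24.1%.

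**Figure D4:**
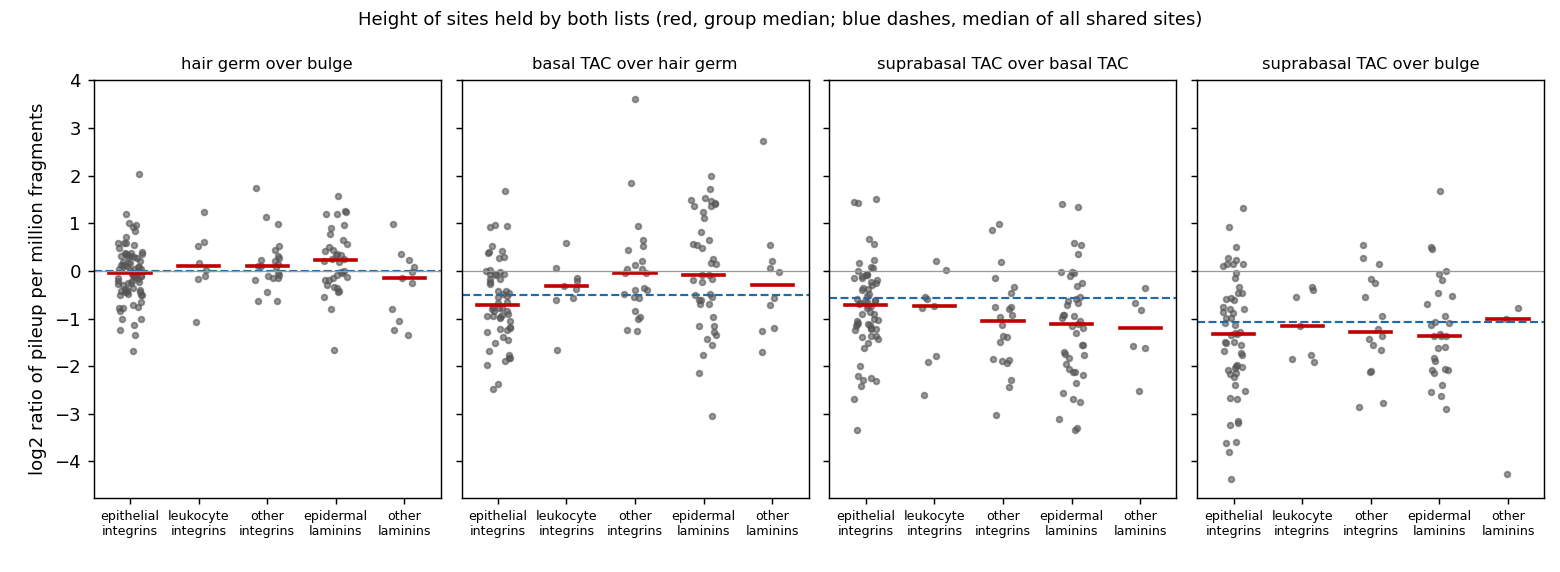
Log2 ratio of height (FPM) at sites held by both lists, 1 point per site, for each group in the 4 pairs of lists. Red lines are group medians, blue dashes the median over all shared sites, and the grey line is 0; the median of epidermal laminins lies above that of all sites for basal TAC over hair germ (-0.08 against -0.50) and below it for suprabasal over basal TAC (-1.10 against -0.57).

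Between basal and suprabasal TACs, each integrin and laminin group had more sites of basal TACs alone than of suprabasal TACs alone. Of all 296 member sites in either list, 104 (35.1%, 29.7 to 40.9%) were in basal TACs alone and 48 (16.2%, 12.2 to 20.9%) in suprabasal TACs alone. Over all sites the shares were 27.4 and 22.7%, outside both intervals. These intervals count sites as independent, which sites of 1 gene are not. From basal to suprabasal TACs, peaks went from 11 to 1 at Itgb1 and from 16 to 8 at Itga1. The shares without single genes were not computed. The other integrins had 23 of 49 (46.9%, 32.5 to 61.7%) in basal TACs alone and 4 in suprabasal TACs alone. Epidermal laminins had 32 and 17 of 92, epithelial integrins 34 and 16 of 114, other laminins 9 and 6 of 21 and leukocyte integrins 6 and 5 of 20. By gene, 18 of 36 members had fewer peaks in suprabasal TACs and 9 more, against 31 and 33.7% of all genes. The largest difference downward was at Itgb1 (11 peaks in basal and 1 in suprabasal TACs), and the largest upward, of 3 peaks each, at Itgb5 and Lamc3. With peaks below 0.814 FPM left out of every list, the difference at Lamc3 turned to -2.

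At shared sites of this pair the median log2 ratio was -0.91 for all members and -0.57 over all sites. Epidermal laminins were lowest among the larger groups, at -1.10, and relative to the common gene-end sites at -0.56, where 18 of 43 sites (41.9%) were at least 2-fold lower and 4 higher, against 13.9 and 9.85% of all sites. Epithelial integrins were at -0.71, relative to the common sites -0.17, where 9 of 64 were lower and 5 higher. By FPM, 26 of 64 shared epithelial sites and 23 of 43 epidermal laminin sites were at least 2-fold lower, against 27.5% of all, and 3 and 2 were higher, against 3.75%.

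Across the whole path, from bulge to suprabasal TACs, epithelial integrins and epidermal laminins differed in which list held more. Of 131 epithelial integrin sites, 51 (38.9%, 30.5 to 47.8%) were in the bulge alone and 24 (18.3%, 12.1 to 26.0%) in suprabasal TACs alone. Of 74 epidermal laminin sites, 14 (18.9%, 10.8 to 29.7%) were in the bulge alone and 31 (41.9%, 30.5 to 53.9%) in suprabasal TACs alone. The background was 25.5 and 34.9%, and the intervals of both groups did not overlap each other. These intervals also count sites of 1 gene as independent. By gene, 8 of 11 epithelial integrins had fewer peaks in suprabasal TACs than in the bulge and 2 more (Itgb4 and Itgb5), while 4 of 5 epidermal laminins had more and Lama5 fewer. Of all genes 22.5% had fewer and 46.2% more. The differences at Lama3 (7 more peaks), Lamb1 (2 more) and Lamb3 (2 more) turned to -2 each when peaks below 0.814 FPM were left out. That level is the 5th percentile of peak height in the hair germ, the highest of the 4 lists. It was applied to every list alike, and the median peak was 1.04 FPM in suprabasal TACs and 2.29 in the bulge.

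Heights at sites shared by bulge and suprabasal TACs were lower in the latter in both groups, with medians of -1.32 and -1.36 against -1.07 over all sites. Relative to the common gene-end sites they were -0.11 and -0.15, against 0.14 over all. By FPM, 32 of 56 shared epithelial sites were at least 2-fold lower and 1 higher, against 52.8 and 4.54% of all, and relative to the common sites 12 were lower and 11 higher, against 12.3 and 20.7%. Among single genes, Itgb6 and Lama2 stood lowest: 4 of the 5 shared sites with the lowest ratio of suprabasal TACs to bulge belonged to them, and the other was at Itga2.

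The proteins that tie these chains to the cell and the matrix were examined by the same rule. Hemidesmosome genes (Col17a1, Dst, Plec and Cd151) had a gene end or start peak in all 4 lists. Of 71 of their sites in bulge or suprabasal TACs, 32 (45.1%, 33.2 to 57.3%) were in the bulge alone and 13 (18.3%, 10.1 to 29.3%) in suprabasal TACs alone, against 25.5 and 34.9% of all sites. By gene, 2 of these 4 had fewer peaks in suprabasal TACs than in the bulge, 1 more and 1 the same number. Col17a1, the transmembrane collagen of hemidesmosomes, had 16, 9, 7 and 8 peaks in bulge, hair germ, basal and suprabasal TACs, and Dst 33, 27, 34 and 19. The 14 genes of the cytoplasmic adhesion complex (talins, kindlins, vinculin, focal adhesion kinase and others) had 88 of 161 sites (54.7%, 46.6 to 62.5%) in basal TACs alone against the hair germ, against 38% of all sites. Tln2, a talin gene with 4 peaks in hair germ cells and 31 in basal TACs, held 28 of those 88 sites. The other 13 genes had 60 of 129 (46.5%, 37.7 to 55.5%), an interval that holds the background. By gene, 11 of the 14 had more peaks in basal TACs and 2 fewer, against 48.8 and 15.6% of all genes. Fermt3, the kindlin of blood cells, had 1, 0, 1 and 2 peaks.

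Basement membrane partners (nidogens, perlecan, type IV and VII collagens, dystroglycan, fibronectin, tenascin and ligands of integrin α8) had 48 of 113 sites (42.5%, 33.2 to 52.1%) in basal TACs alone against suprabasal TACs and 16 (14.2%, 8.32 to 22.0%) in suprabasal TACs alone, where all sites had 27.4 and 22.7%. Of these 11 genes 6 had fewer peaks in suprabasal TACs, 2 more and 3 the same number, while 31% of all genes had fewer and 33.7% more. Tnc, a ligand of the α9 chain, had 23, 21, 22 and 8 peaks in bulge, hair germ, basal and suprabasal TACs, and Col4a2 had 9, 12, 17 and 5. Col7a1, the collagen of anchoring fibrils, had none assigned in any list.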

How the data were processed

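ATAC-seq peak lists of 4 sorted mouse follicle populations were used, each called by the authors on 2 pooled samples. The peak caller, per the file headers, was MACS 2.1.1.20160309, run by the authors on paired-end fragments (q-value cutoff 0.05, no control library, effective genome size 1.87e+09, local window 10 kb). Bowtie2 2.2.9, Picard and mm10 stand in the submitters' processing notes. For a shift of read ends, none of the sources used here gives one, so positions near peak edges carry that limit. The deposited values are the fragment coverage (pileup signal) at the summit, not scaled for depth, the −log10 p-value and −log10 q-value, and the fold enrichment over local background, all by the authors' caller. Both −log10 columns lost their names in the deposited files and were told apart by place.

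Peaks on Y and mitochondrial chromosomes were left out. Pileup was divided by header fragments. Gene spans came from a RefSeq table of GRCm38.p6, with 21631 protein-coding genes; it gives neither strand nor exons, so exons and introns were not separated, and strand was known for the 23 members in the RefSeq promoter table. A site took the member of its highest assigned peak. Medians of shared sites leave out sites held by 1 list. Intervals were exact Poisson for heights and Clopper-Pearson for shares; PCR copies are not independent molecules. Depth was 11053351 to 47852893 fragments per list. No test was run, since each population has 1 list. The 8 peaks inside a member and another gene counted for the member. Alternatives were stricter peaks, a shorter distance, equal list sizes, the summit, 50% overlap, ties left out, Itga4 regrouped, absence scaled for depth, common-site scaling and fold enrichment.

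Genes named in full were Itga6 and Itgb1, the 3 members with the highest summed height in each group, the 5 with the largest gain and loss of peaks in suprabasal TACs against basal TACs and against bulge, and leukocyte integrins with a gene-end peak. Single sites were the highest of each such gene and those among the 10 highest held by 1 list; others were chosen after their values were seen. The members and lists were chosen with earlier results of these data known. Scripts ran in Python 3.11.15 with numpy 2.4.6, pandas 2.3.3, scipy 1.17.1 and matplotlib 3.10.9 and were tested on simulated peaks.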

Additional observations from a re-analysis of the deposited data

How the results depend on the processing

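The counts of epithelial and leukocyte integrins with any assigned peak were within 1.5 times the reported count under every alternative tried. Counts of genes with a peak at a gene end or start were not repeated under the alternatives. Of the main summary values over all alternatives, 163 stayed within their limits, 20 moved and 1 reversed. Among the further values, those of single groups and genes, 652 stayed, 111 moved and 13 reversed. Restricted to peaks with −log10 q-values of 10 or more, member peaks numbered 126 in the hair germ and 131 in suprabasal TACs. With peaks below 0.814 FPM left out of every list, they numbered 123 in suprabasal TACs. Shares of member sites are given next with the share of all sites in parentheses. At that q-value the hair germ alone held 4.79% (4.86%) against the bulge. Between hair germ and basal TACs, 43.8% (44.99%) were only in basal TACs and 9.22% (11.1%) only in hair germ cells. The shares in these pairs with the hair germ were thus near those of all sites. Basal TACs alone held 44.8% (33.8%) against suprabasal TACs, and suprabasal TACs alone 22.1% (29.4%) against the bulge. With each list cut to 56536 peaks, the shares were 27.2% (26.9%) only in basal TACs and 24.0% (24.9%) only in hair germ cells in that pair. Suprabasal TACs alone held 21.7% (29.7%) and the bulge alone 39.6% (30.1%) in their pair. With absence scaled for depth the share was 15.2% (13.8%) in the bulge alone against the hair germ. In suprabasal TACs alone it was 10.1% (15.3%) against basal TACs and 18.5% (25.4%) against the bulge.

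Scaled on common gene-end sites, the median log2 ratio of all members was 0.24 for basal TAC over hair germ, against -0.41 by FPM, -0.37 for suprabasal over basal TAC and -0.11 for suprabasal TAC over bulge. Over all sites the medians on that scale were 0.15, -0.03 and 0.14. By the authors' fold enrichment the member medians were -0.0044, -0.41 and -0.44, against -0.043, -0.32 and -0.46 over all sites. By fold enrichment the members were thus no lower than all sites for suprabasal TAC over bulge. On the common-site scale the medians of suprabasal TAC over bulge turned to 0.047 for leukocyte integrins and 0.19 for other laminins, and by fold enrichment that of basal TAC over hair germ turned to 0.022 for epithelial integrins. Among single genes, suprabasal minus bulge peaks turned negative at Lama3, Lamb1 and Lamb3. With peaks below 0.814 FPM left out, each was at -2. At the stricter q-value Lamb1 was at -1 and Lamb3 at -2, and with equal lists they were at -2 and -1. Suprabasal minus basal peaks turned to 1 at Lamc1 with equal lists. At Lamc3 they turned to -2 at the stricter q-value and with the cut at 0.814 FPM. The cause was not tested. No paired analysis was possible because each list pools both samples, and leaving out a replicate was not possible for the same reason. The depth limits what an absent peak can show, most in the hair germ, the shallowest list.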
